A study of Mus musculus with 18 samples.

Results

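The genes described here are 9 immediate early genes: Fos, Fosb, Junb, Jund, Egr1, Ier2, Dusp1, Nr4a1 and Btg2. They were chosen by symbol, as every probe set of the deposited table whose platform annotation gives 1 gene symbol equal to one of these names. The names, and the further lists below, were set with earlier results of these data known. Counts of members beside the shares of all probe sets or genes are therefore descriptions. All 9 genes were found, of 12393 genes named this way on the array, with 10 of its 22690 probe sets: 1 per gene except Btg2, which has 2. Of the 10, 9 passed the filter on low signals and were tested, and the probe set of Fosb was not. The signals came from motor neurons captured by laser from stained frozen sections of the lumbar spinal cord, with 1 array per mouse and 3 mice in each of 6 groups. G93A mice carry a mutant human SOD1 transgene and develop motor neuron disease, and the controls were their non-transgenic littermates. Both genotypes were taken at 60, 90 and 120 days of age. No treatment is given in the labels, and neither the strain background nor the sex of the mice, nor the handling before death. The study asked how the expression profile of motor neurons differs between the genotypes at these ages.

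Immediate early genes are transcribed within minutes of a stimulus, from transcription factors already present in the cell, and their short-lived transcripts do not need new protein synthesis. In neurons, calcium entry and growth factor signals act through kinases on the factors CREB and SRF, which bind the promoters of many of these genes. Fos, Fosb, Junb and Jund encode subunits of the AP-1 transcription factor, in which a Fos protein pairs with a Jun protein. Egr1 encodes a zinc finger transcription factor, Nr4a1 an orphan nuclear receptor, Ier2 a nuclear protein, Dusp1 a phosphatase that inactivates MAP kinases, and Btg2 an antiproliferative protein. Levels of such transcripts respond to activity and to handling of the animal, and Jund is known for a high basal level with weak induction.

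The upstream sequences of the members are shown because a CREB half-site, the letters TGACG, is in most of them. Fos and Jund are among those printed because they carry the changes called in the tests. The RefSeq table used here (GRCm38.p6) holds a gene start for 7 of the 9 members, and the 250 bases before each start were searched on both strands. TGACG was found in 6 of the 7, against 17.8% of 32851 promoters of the same length. The full palindrome TGACGTCA, which holds TGACG on each strand, was in 2 of the 7 (Btg2 and Dusp1), against 1.55%. The CArG box, the binding motif of SRF, was in 0 of the 7, against 1.47%, the letters GGGCGG in 5, against 32.7%, and TATAAA in 1 (Fos), against 7.59%. A match is only a match of letters in this window, and other starts of the same gene were not searched. Bases farther upstream were not searched either, and Egr1 and Ier2 had no start to search. The count of 0 for the CArG box therefore does not show that these genes lack one. The following lines give the bases before the start of Fos (chr12:85473640-85473889, plus strand), Dusp1 (chr17:26508473-26508722, minus strand), Nr4a1 (chr15:101266596-101266845, plus strand) and Jund (chr8:70697489-70697738, plus strand), 5′ to 3′ on the strand of the gene. Capitals mark TGACG or its reverse complement CGTCA. Fos holds TGACG at 129 to 125 and at 66 to 62 bases before the start. Dusp1 holds it at 191 to 187 and, as the palindrome, at 143 to 136. Nr4a1 holds it 4 times, and the stretch upstream of Jund does not hold it. Which start of Jund these cells use was not tested. The absence from this stretch therefore does not show that the promoter of Jund lacks the site. The Jund stretch is 47.6% G and C, where those of Fos, Dusp1 and Nr4a1 are 58.4%, 68.4% and 74.4%. The shares over all promoters were not matched for this content.
Fos: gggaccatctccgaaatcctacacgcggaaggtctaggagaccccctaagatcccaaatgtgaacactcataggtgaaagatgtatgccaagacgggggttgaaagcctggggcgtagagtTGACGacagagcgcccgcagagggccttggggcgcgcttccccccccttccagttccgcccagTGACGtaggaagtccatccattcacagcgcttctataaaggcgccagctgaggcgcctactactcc
Dusp1: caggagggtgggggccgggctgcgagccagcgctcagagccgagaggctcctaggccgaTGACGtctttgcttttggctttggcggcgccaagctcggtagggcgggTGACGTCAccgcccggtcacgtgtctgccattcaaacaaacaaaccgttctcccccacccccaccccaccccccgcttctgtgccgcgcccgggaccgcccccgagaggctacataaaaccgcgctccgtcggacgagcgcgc
Nr4a1: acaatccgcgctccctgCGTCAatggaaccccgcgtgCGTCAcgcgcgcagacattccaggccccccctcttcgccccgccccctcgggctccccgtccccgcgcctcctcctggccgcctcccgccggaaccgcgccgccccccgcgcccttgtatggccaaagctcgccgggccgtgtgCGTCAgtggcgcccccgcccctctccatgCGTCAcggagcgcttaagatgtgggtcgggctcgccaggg
Jund: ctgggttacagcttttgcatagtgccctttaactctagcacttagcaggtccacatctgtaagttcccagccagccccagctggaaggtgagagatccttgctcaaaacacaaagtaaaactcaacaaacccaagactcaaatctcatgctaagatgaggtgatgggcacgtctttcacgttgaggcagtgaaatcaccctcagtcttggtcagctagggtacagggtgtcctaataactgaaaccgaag

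The data as a whole set the precision of these values. The lowest and highest correlation between arrays of a group were 0.641 and 0.838, and genotype differences at a single age had a median standard error of 0.694 (log2). Of 10 motor neuron marker genes, 9 were on the array, and Nefl, Nefm, Nefh and Prph lay above the array's median signal on all 18 arrays, while the cholinergic transporters Slc18a3 and Slc5a7 did so on 0 and 2. Above the median on all 18 arrays were also 4 oligodendrocyte, 2 astrocyte and 3 microglia marker genes. In captured tissue of this kind, fewer cells of a type and less RNA per cell cannot be told apart. The Gapdh log2 ratio (3′ over 5′ probe set), a measure of RNA length that amplification also moves, ran from 2.47 to 5.57 over the arrays. The median signal of an array ran from 37 to 64, although all arrays were scaled to the same trimmed mean.

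Among the AP-1 subunits, Fos was lowest in controls at 60 days. Its signals there were 135.6, 62.2 and 16, against 277.6, 251 and 129.1 in G93A mice of the same age. In the later groups Fos lay at 318.1, 310.6 and 153.3 in controls and 244.8, 296.2 and 283.9 in G93A mice at 90 days, and at 410.3, 202.1 and 188.4 and 247.4, 327.4 and 404.4 at 120 days. The 60-day controls thus stood apart from the other groups, whose means lay within 0.62 of each other on the log2 scale. In the order of group means the only step wider than the larger SD of its neighbours was that from G93A to control at 60 days, 2.02 on the log2 scale.

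Jund was highest in the group where Fos was lowest. Its signals in 60-day controls were 995.8, 1146.6 and 1351.6, the highest of all 18 arrays. G93A mice had 458.4, 774.1 and 982.7 at 60 days. At 90 days they read 501.1, 514.1 and 414.1, and at 120 days 544.1, 575.5 and 498.4. Controls had 687.8, 621.5 and 757.1 at 90 days and 258.9, 492.9 and 428.6 at 120 days. Every G93A array was therefore below every control at 60 and at 90 days and above every control at 120 days. The margins were narrow at 60 days (982.7 against 995.8) and at 120 days (498.4 against 492.9). Control 60 days, control 90 days and G93A 120 days were each set off from the next lower group by more than the larger SD.

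Junb and Fosb were dim. Junb lay above its array's median on 3 of 18 arrays. In G93A mice, in order of age, Junb ran from 37.7 to 39.6, from 14.5 to 46.2 and from 9.9 to 100.2, and in controls from 7.3 to 61.4, from 3.1 to 43.1 and from 24.5 to 38.3. Fosb lay above the median on 2 arrays, ran from 7.7 to 56 over all groups and was not tested. For both genes the groups overlapped at each age, and for Fosb no neighbouring groups differed beyond their spread.

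**Figure D1:**
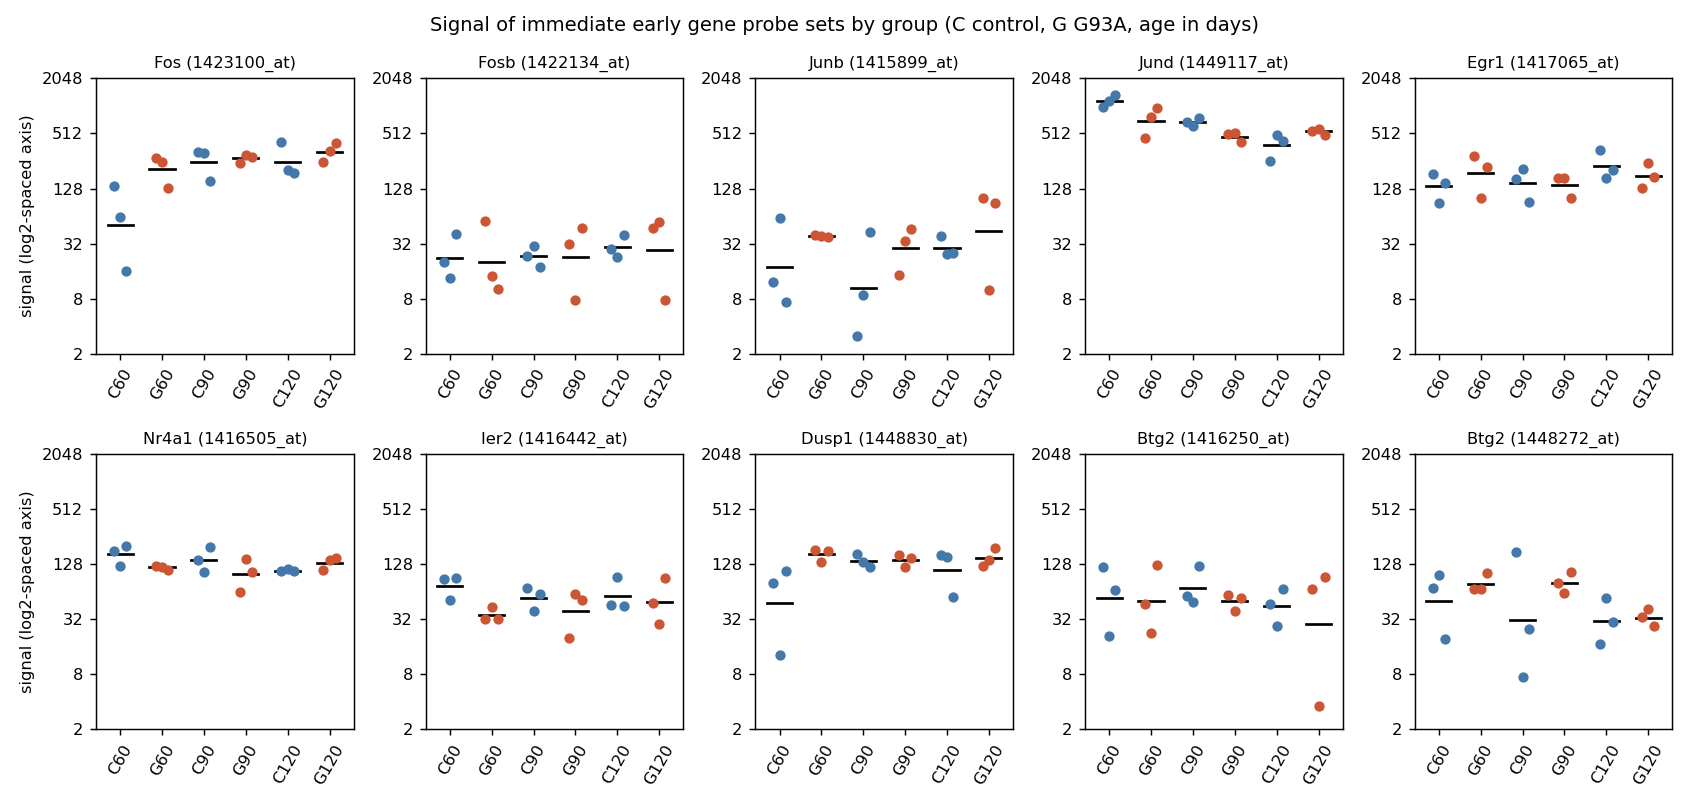
Signal of each probe set (log2-spaced axis, in the deposited linear units) in the 6 groups, with 1 point per array and a bar at the geometric mean of the 3 arrays; blue points are controls and red points G93A mice. Fos is lowest and Jund highest in controls at 60 days, and panels are read within a probe set, not against each other.

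The other transcription factors showed smaller ranges. Egr1 was above the median on all 18 arrays, with signals of 293.3, 102 and 221.3 in G93A mice and 186, 89.8 and 146.7 in controls at 60 days, and of 131.3, 240.9 and 170.9 against 337.2, 166.1 and 206.2 at 120 days. The groups overlapped at each age, and no neighbours in the order of levels differed beyond their spread. Nr4a1 was also above the median on all 18 arrays and ran from 62.9 to 201.8. Its arrays were close together in controls at 120 days (107.6, 112.3 and 107.7) and in G93A mice at 60 days (123.9, 120.1 and 111.3), and spread in G93A mice at 90 days (62.9, 146.6 and 106.1).

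Of the signalling and growth regulators, Dusp1 had its lowest group in 60-day controls, as Fos did. Dusp1 read 182.1, 135.9 and 180.3 in G93A mice and 79.3, 13.1 and 107.3 in controls at 60 days, with no overlap. In the later groups Dusp1 ran from 118.8 to 194.6, apart from 1 control of 120 days at 56.2. Ier2 went the other way at 60 days, with 32.6, 43.7 and 32.5 in G93A mice and 87.2, 51.6 and 91.3 in controls, again with no overlap. The Btg2 probe sets disagreed. The one of higher mean log2 signal, 1416250_at, ran from 3.6 to 125.1, and the lowest value was 1 of the 3 G93A arrays at 120 days. The other, 1448272_at, read 67.8, 69.2 and 103.6 in G93A mice at 60 days and 33.5, 41.5 and 26.7 at 120 days.

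At 60 days Fos and Dusp1 were higher and Jund was lower in G93A mice at an unadjusted p below 0.05, but no member passed the adjustment over all 16565 probe sets tested. With the replicate number as a block in the fit, which the labels do not call for, Fos alone was called, as given in the last section. In limma, 0 of the 9 member probe sets had an adjusted p below 0.05, where 0.688% of all probe sets did, and 3 had an unadjusted p below 0.05, where 12.6% did. The difference in Fos was 2.02 ± 0.53 (log2, SE, 3 against 3 mice), or 4.05-fold, with a 95% interval from 0.92 to 3.12 and a limma adjusted p of 0.0758. Its groups overlapped by a single pair of arrays, 129.1 in G93A against 135.6 in control. Dusp1 differed by 1.77 ± 0.57, or 3.42-fold (limma adjusted p = 0.153), and Jund by -0.72 ± 0.30 (limma adjusted p = 0.303). Groups did not overlap for 3 of the 9 (Dusp1, Jund and Ier2), against 18.5% of all probe sets. Ier2 differed by -1.05 ± 0.64 (limma adjusted p = 0.522). Junb (1.13 ± 1.06), Egr1 (0.48 ± 0.44), Nr4a1 (-0.47 ± 0.39) and Btg2 (-0.11 ± 0.95 and 0.62 ± 0.86) had limma adjusted p-values of 0.669 or more. The size rested on single controls: without the 60-day control at 16 the difference in Fos was 1.18, without the one at 135.6 it was 2.72 with a limma adjusted p of 0.00643, and without the one at 13.1 that in Dusp1 was 0.84. Without G93A 60 days replicate 1 the difference in Jund was -0.41.

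Array measures and cell type markers at 60 days were as follows. The Gapdh log2 ratio was 3.88 to 4.63 in G93A mice and 3.00 to 3.66 in controls, and with it as a covariate the differences were 1.82 for Fos, 1.42 for Dusp1 and -0.51 for Jund. The hybridization controls (18 probe sets, mean of log2 signals) ran from 7.74 to 10.7 in G93A mice and from 10.7 to 11.4 in controls, and with it as a covariate they were 1.38, 1.5 and -0.21. The summed signal of 8 oligodendrocyte marker genes was 8356 to 10927 in G93A mice against 5215 to 7902 in controls, that of 9 astrocyte genes 1512 to 2985 against 1203 to 1358, and that of 7 endothelial genes 560 to 722 against 374 to 492. The sum of 3 blood genes was 120 to 179 against 237 to 273, that of 12 microglia genes 2333 to 3082 against 1900 to 4032, and that of the 9 motor neuron genes 7445 to 19106 against 18818 to 28114. These are sums of linear signals, so the brightest gene of a list weighs most in its sum. Medians over all arrays were 6493 for Mbp (oligodendrocyte), 1931 for Csf1r (microglia) and 14276 for Nefl (motor neuron), the brightest of their lists. No marker gene was at 0, and the part of these cell types in the member differences was not tested.

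At 90 and 120 days no member passed either threshold between genotypes. At 90 days 0 of the 9 member probe sets passed the adjusted threshold in limma, as 0% of all did, and 0 had an unadjusted p below 0.05, where 4.56% did. Fos differed by 0.15 ± 0.53, Dusp1 by 0.05 ± 0.57 and Jund by -0.53 ± 0.30 (limma adjusted p = 0.997). Jund was the only member of the 9 whose groups did not overlap, against 11.5% of all probe sets. At 120 days 0 of the 9 passed the adjusted threshold, where 0.0241% did, and 0 the unadjusted one, where 12.2% did. Jund differed by 0.50 ± 0.30 (limma adjusted p = 0.522), the only member without overlap, against 16.1% of all. Fos differed by 0.36 ± 0.53, Dusp1 by 0.42 ± 0.57, Egr1 by -0.37 ± 0.44, Nr4a1 by 0.28 ± 0.39 and Ier2 by -0.21 ± 0.64. The summed microglia signal at 120 days was 9458 to 16379 in G93A mice against 3661 to 6080 in controls, and its part in the member values was not tested.

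**Figure D2:**
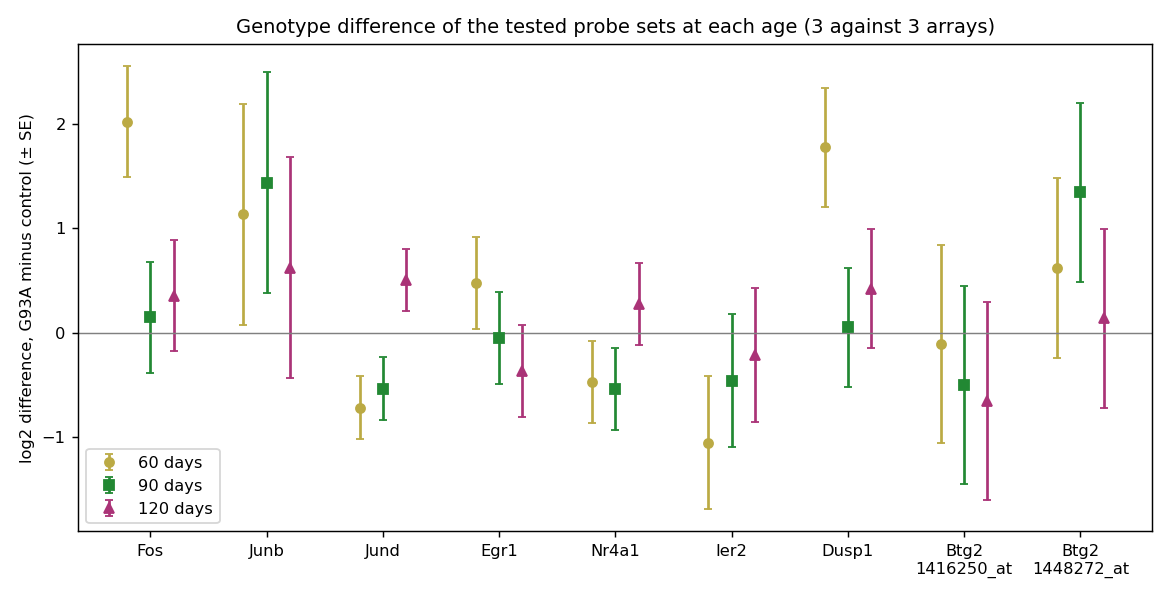
Log2 difference between G93A and control mice (points) with its standard error (bars) for the 9 tested probe sets at 60, 90 and 120 days, 3 arrays against 3. Fos and Dusp1 lie at 2.02 and 1.77 at 60 days and within 1 standard error of 0 at the later ages, and Jund passes from -0.72 to 0.50.

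Averaged over the 3 ages (9 against 9 mice), Fos differed by 0.84 ± 0.31 and Dusp1 by 0.75 ± 0.33, with limma adjusted p-values of 0.548 and 0.613. Of the 9 member probe sets 0 passed the adjusted threshold, where 0.0121% of all did, and 2, Fos and Dusp1, had an unadjusted p below 0.05, where 7.74% did. Egr1 had a mean difference of 0.02 ± 0.25. The test of whether the genotype difference changed with age gave 0 adjusted calls among the 9, where 0.417% of all were called, and 2 unadjusted, where 13.1% were. These were Jund (F = 4.83, limma adjusted p = 0.264) and Fos (F = 3.72, limma adjusted p = 0.352).

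The member changes that passed the adjusted threshold were with age in controls, where Fos rose and Jund fell between 60 and 120 days. Fos rose 4.87-fold, a log2 change of 2.29 ± 0.53 (limma adjusted p = 0.0117), and Jund fell 3.04-fold, by 1.61 ± 0.30 (limma adjusted p = 0.00229). Both pairs of groups were free of overlap in all 3 mice per age. These were 2 of the 9 member probe sets, where 6.71% of all probe sets passed in this comparison. At the unadjusted threshold 3 of 9 passed, where 24.5% did, the third being Dusp1, with 1.21 ± 0.57 (limma adjusted p = 0.188). Groups did not overlap for 3 of 9 (Fos, Jund and Nr4a1), against 27.7%. Nr4a1 was lower at 120 days, with -0.59 ± 0.39 (limma adjusted p = 0.369), and Egr1 differed by 0.75 ± 0.44 (limma adjusted p = 0.303). The same 60-day controls enter the genotype comparison at 60 days, so the values of Fos, Dusp1 and Jund in the 2 comparisons are not independent.

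The call of Fos was lost without the 60-day control at 16 (1.45, limma adjusted p = 0.0745) and without the 120-day control at 410.3 (1.93, limma adjusted p = 0.0622). It was also lost without the trend in the variance (limma adjusted p = 0.0557) and with only the compared groups in the fit (limma adjusted p = 0.0873). Gapdh ratios of the controls did not overlap between the ages (3.00 to 3.66 at 60 days, 4.22 to 4.73 at 120 days), and with the ratio as a covariate Fos had 1.99 (limma adjusted p = 0.181) and Jund -1.31 (limma adjusted p = 0.0962). The median difference of all tested probe sets in this comparison was -0.26 as deposited, 0.00 after quantile normalization and 0.24 after centring each array on its median. Under these scalings the change of Jund was -1.89 and -1.11, and that of Fos 2.47 and 2.78, each with a limma adjusted p below the threshold. The summed oligodendrocyte signal was 5215 to 7902 in 60-day controls and 14700 to 22125 in 120-day controls, and that of the blood genes 237 to 273 and 40.3 to 99.4. Astrocyte sums were 1203 to 1358 and 1451 to 2309, endothelial 374 to 492 and 505 to 788, and those of 9 interneuron genes 720 to 1041 and 1058 to 1824, again without overlap. Microglia sums (1900 to 4032 and 3661 to 6080) and motor neuron sums (18818 to 28114 and 14402 to 28674) overlapped. The part of these cells was not tested.

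In G93A mice none of the 9 member probe sets passed between 60 and 120 days at the adjusted threshold, where 2% of all did, and 0 passed the unadjusted one, where 16.3% did. Fos differed by 0.62 ± 0.53, Jund by -0.39 ± 0.30 and Dusp1 by -0.14 ± 0.57. Groups were free of overlap for 1 of 9, against 21.8% of all. This was Btg2 probe set 1448272_at, with -1.24 ± 0.86 (limma adjusted p = 0.503). Probe set 1416250_at had -0.85 ± 0.95. That the age change was called in controls and not in G93A mice does not show that it differed between them: the tests of the genotype difference over the ages, given above, missed the threshold for both genes.

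Fos and Jund also went opposite ways among mice of the same group. After subtraction of the group means, Pearson's r over 18 arrays was -0.643 and Spearman's rho -0.837, with exact permutation p-values within groups of 0.00118 and 0.00107. Adjusted over the 28 pairs of the 8 genes tested these were 0.033 and 0.03, and no other pair passed. Without the 2 arrays farthest from the median of Fos, r was -0.756, with an exact permutation p adjusted over the 28 pairs of 0.205. Adjusted over the 28 pairs, the exact permutation p was 0.264 after quantile normalization and 0.29 after median centring, with r at -0.599 and -0.626. The pair was thus called with the scaling as deposited and not with these. It was also lost when any of several single arrays was left out, as given in the last section. The cause of these losses was not tested. Ier2 and Nr4a1 had r = 0.668 and rho = 0.666 (exact permutation p = 0.0207, adjusted 0.29), and Fos and Dusp1 r = -0.0688. Over the 28 pairs the median r was 0.0134 and 15 were above 0, beside a median of -0.00098 and 49.9% above 0 over all pairs of the 10051 genes represented.

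**Figure D3:**
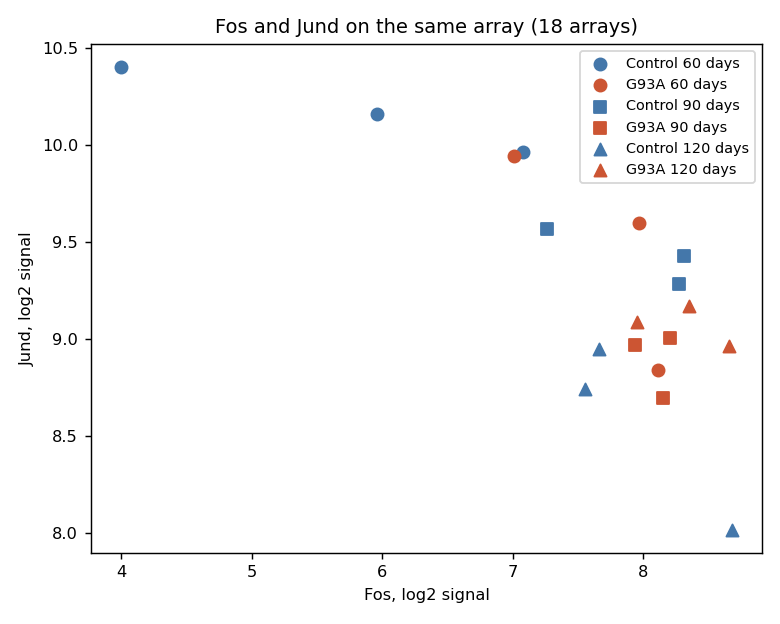
Log2 signal of Jund against that of Fos, with 1 point per array, coloured by genotype (blue control, red G93A) and shaped by age. The 60-day controls lie at the upper left, with low Fos and high Jund, and the 120-day control with the lowest Jund has the highest Fos.

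Relations of the members with measures of the array did not pass the adjustment over 24 relations; those with the lowest p are given here. Within groups, Jund had r = 0.794 and rho = 0.75 with the median signal of the array (exact permutation p = 0.00583 and 0.00386, adjusted over 24 relations 0.07 and 0.0692), and r = 0.719 without the 2 arrays farthest from the median. Fos had r = -0.533 and rho = -0.567 (exact permutation p = 0.0404 and 0.0679, adjusted 0.282 and 0.246), and r = -0.523 without such arrays. With the hybridization controls Jund had r = 0.784 and rho = 0.732 (exact permutation p = 0.00264 and 0.00577, adjusted 0.0633 and 0.0692), and r = 0.764 without the 2 arrays. The 24 relations were those of the 8 genes with the array median, the Gapdh ratio and the hybridization level, and 0 passed the adjustment. The array median was 58 to 64 in 60-day controls and 37 to 47.8 in 120-day controls, the groups in which Jund was highest and lowest. At 120 days G93A arrays had medians of 52 to 56, above all controls, while at 60 and 90 days the medians of the genotypes overlapped.

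**Figure D4:**
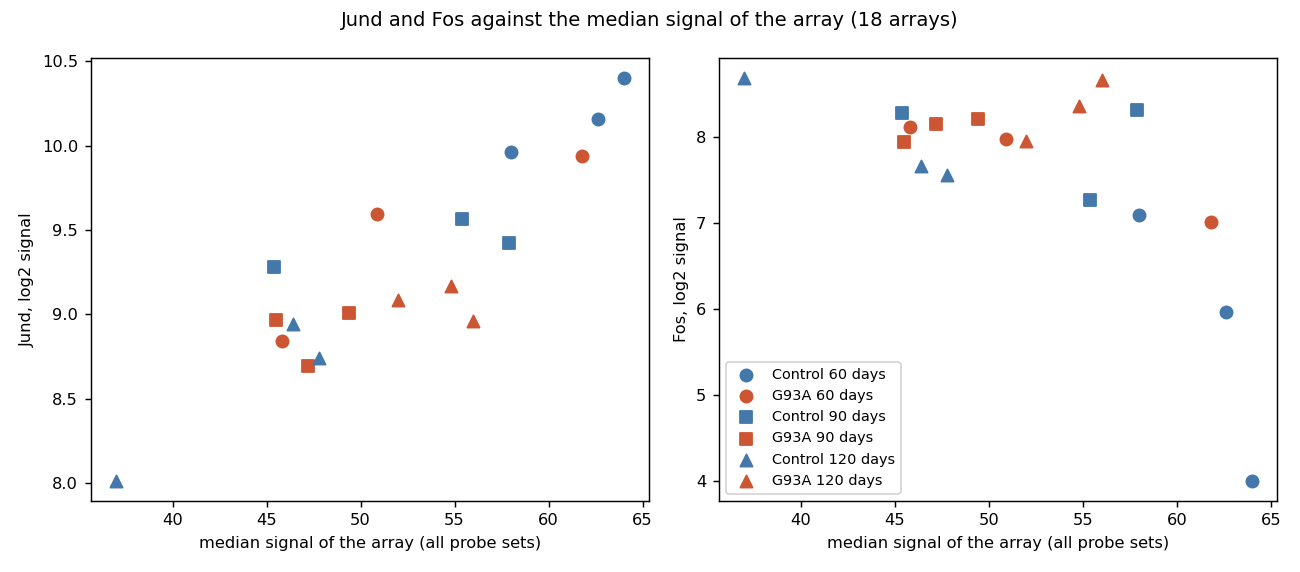
Log2 signal of Jund (left) and Fos (right) against the median signal of all probe sets on the same array, with 1 point per array, blue for control and red for G93A. The array with the highest median has the highest Jund and the lowest Fos, and the array with the lowest median has the lowest Jund.

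Of 40 other immediate early genes, 35 were on the array and 31 passed the filter. In limma 0 of the 31 passed the adjusted threshold between genotypes at any age or in the mean. At an unadjusted p below 0.05, 5 were higher and 2 lower in G93A mice at 60 days, where 8.04% and 4.57% of all genes were. These numbers were 1 and 2 at 90 days (2.53% and 2.14% of all genes), 3 and 3 at 120 days (5.58% and 6.34%), and 4 and 1 in the mean of the ages (4.47% and 3.27%). At 60, 90 and 120 days their median differences were -0.42, -0.14 and 0.70, where those of all 10051 genes were -0.06, 0.00 and 0.07. Atf3, a stress-induced transcription factor that marks injured neurons, had the lowest unadjusted p. At 120 days its signals were 204.3, 111.4 and 145.4 in G93A mice and 6.3, 56.7 and 16.5 in controls, a difference of 3.04 ± 0.86 with a limma adjusted p of 0.154. The controls of 60 days read 90.2, 127.8 and 167.8 for Atf3, above all 3 controls of 120 days. The 120-day controls at 6.3 and 16.5 lie below their array medians of 37 and 47.8, so the size of the Atf3 difference is uncertain. Trib1, a pseudokinase, read 4.3, 9.3 and 8.3 in G93A mice and 93.8, 35.8 and 56.4 in controls at 60 days (-3.05 ± 0.87, limma adjusted p = 0.113). These G93A values lie below the array medians of 45.8 to 61.8, so the size of the Trib1 difference is uncertain too. Btg1, a relative of Btg2, read 581.2, 309.3 and 254.1 against 171.3, 146.1 and 118.6 at 60 days (1.32 ± 0.40, limma adjusted p = 0.13), and its other probe set had 3.61. Ier3, a stress-response gene, read 204.4, 137.9 and 183 against 651.1, 317 and 242.7 at 120 days (-1.09 ± 0.39, limma adjusted p = 0.249). At 60 days Ier3 differed the other way, with 183.7, 181.4 and 162.1 against 53.9, 118.2 and 87.9 (1.09 ± 0.39, limma adjusted p = 0.202). In the mean of the ages its difference was -0.09 ± 0.22.

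With age in controls, 2 of the 31 rose and 1 fell in limma, where 3.89% of all genes rose and 2.83% fell, so the share is near the background. Ier3 rose from 53.9, 118.2 and 87.9 to the 120-day values above, by 2.16 ± 0.39 (limma adjusted p = 0.00171). Rhob, which encodes a small GTPase and was named after its value was seen, rose from 228, 296.8 and 169.1 to 364, 489.6 and 441.9, by 0.93 ± 0.28 (limma adjusted p = 0.0481). Atf3 fell by 2.79 ± 0.86 (limma adjusted p = 0.0495), and the size of this fall rests on the same dim 120-day controls. The median of the 31 genes was -0.81, where that of all genes was -0.22 and the change of Fos was 2.29. In G93A mice 0 of the 31 passed between 60 and 120 days, where 0.826% of all genes rose and 1.05% fell. At an unadjusted p below 0.05, 3 were higher and 2 were lower at 120 days (6.52% and 10.1% of all genes).

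Among 30 upstream kinases and factors, 19 were on the array and 18 passed the filter. In limma 0 passed between genotypes, with 0 higher and 0 lower at an unadjusted p below 0.05 at 60 days, 1 and 4 at 90 days, 1 and 1 at 120 days, and 1 and 0 in the mean, beside the shares of all genes given above. In order of age, their median differences were -0.26, 0.08 and -0.01. Creb1, which encodes CREB, read 40.4, 40.3 and 75.4 in G93A mice and 2.9, 9 and 5.7 in controls at 120 days (3.23 ± 1.06, limma adjusted p = 0.216). Crebbp, its coactivator, read 12, 7 and 8.3 against 67.7, 57.8 and 61.3 (-2.81 ± 0.99, limma adjusted p = 0.25). The Creb1 values in these controls and the Crebbp values in these G93A mice lie below the medians of their arrays. They are not shown to be above background, so the sizes of both differences are uncertain. The kinases Mapk14 (p38) and Map2k2 (MEK2) differed at 90 days by 1.38 ± 0.54 and -1.25 ± 0.52 (limma adjusted p = 0.997 for both), and their other probe sets did not share these directions throughout (-0.36 and 0.22 for Mapk14, 0.63 for Map2k2). With age in controls, Creb1 fell by 3.97 ± 1.06 (limma adjusted p = 0.0258) from 27.2, 135.3 and 154. Its 120-day values lie below the array medians of 37 to 47.8, as do those of Camk4, and are not shown to be above background, so the sizes of these falls are uncertain. Camk4, a calcium-dependent kinase that acts on CREB, named after its value was seen, fell by 2.61 ± 0.78 (limma adjusted p = 0.044), from 73.5, 88.7 and 75.6 to 6.9, 19.8 and 15.9. These were the only 2 of the 18 called with age in controls, where 3.89% of all genes rose and 2.83% fell. In G93A mice 0 of the 18 passed with age, where 0.826% of all genes rose and 1.05% fell. At an unadjusted p below 0.05 in limma, 1 was higher and 2 were lower at 120 days in G93A mice, where 6.52% and 10.1% of all genes were.

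Late activity-dependent targets, which follow the immediate early genes, showed the same absence of genotype calls. Of 15, 13 were measured and 0 passed in limma between genotypes, with 0 at an unadjusted p below 0.05 at 60 days, 1 higher and 1 lower at 90 days, 2 higher at 120 days, and 3 higher and 1 lower in the mean, beside the same shares of all genes. Their median difference was -0.06, 0.10 and 0.24 at the 3 ages. Over the 3 ages Gadd45g, a stress sensor, differed by 1.19 ± 0.43, Scg2, a neuropeptide precursor, by 1.35 ± 0.50 and Inhba, an activin subunit, by -1.57 ± 0.58, each with a limma adjusted p of 0.548. At 90 days Inhba read 7, 35.3 and 11.5 in G93A mice, and Gadd45g 5.5, 29.9 and 45.4 in controls. Scg2 read 14.8 in a 60-day control and 5.5 in a 120-day control. All these values lie below the medians of their arrays, so the sizes of the 3 differences are uncertain. Timp1, a metalloprotease inhibitor, read 180.3, 52.5 and 120.7 in G93A mice against 5.2, 10.9 and 65 in controls at 120 days (2.76 ± 1.08, limma adjusted p = 0.299). The controls at 5.2 and 10.9 lie below their array medians of 37 and 46.4, so the size of the Timp1 difference is uncertain. Stmn4, a tubulin-binding protein named after its value was seen, rose with age in controls by 1.77 ± 0.54 (limma adjusted p = 0.0462) and in G93A mice by 2.18 ± 0.54 (limma adjusted p = 0.034). It was the only 1 of the 13 called in either. Of all genes, 3.89% rose and 2.83% fell in controls, and 0.826% rose and 1.05% fell in G93A mice.

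The mean profile of the 8 tested genes, each scaled to mean 0 and SD 1 over the 18 arrays, was set against all 10051 genes. Outside the members it was most like that of Dipk1b (r = 0.811, rho = 0.604), followed by Wbp1 (r = 0.802, rho = 0.748), Pacsin1 (r = 0.743, rho = 0.721), Nptx2 (r = 0.733, rho = 0.682) and Chil4 (r = 0.729, rho = 0.567). Nptx2, a neuronal pentraxin, is also among the late targets. These are the highest of many values, are given as a description, and share the arrays and their scaling. The members' own r with the mean that contains them ran from -0.0182 (Jund) and 0.126 (Fos) to 0.599 (Btg2), so the mean profile is that of Btg2, Ier2 (0.564) and Nr4a1 (0.548) more than of Fos or Jund.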

How the data were processed

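The authors deposited 1 signal intensity for each probe set and array, not on a log scale; the submitters' processing notes name MAS5, with no version, and its settings are not given. Each array was scaled to a trimmed mean of 100.04 to 100.06 (2% trimmed at each end). Detection calls were not used here, and depth has no counterpart on arrays: the number of arrays limits the precision. From these values, signals under 1 were set to 1 (965 of 408420, 0.236%) and put on the log2 scale. Probe sets above their array's median in at least 3 of 18 arrays were tested, without the 64 control probe sets, which left 16565. Gene symbols came from the platform annotation (1 symbol for 20380 probe sets, several for 691, none for 1555), and all 10 member probe sets matched GRCm38.p6 RefSeq genes by Entrez identifier. limma 3.58.1 in R 4.3.3 fitted the 6 group means over all 18 arrays with a trended empirical Bayes step (12 residual degrees of freedom, two-sided tests), with Benjamini-Hochberg adjustment over the 16565 probe sets and a threshold of 0.05. The fit was checked on simulated data with independent noise, where changes were added in 1 group to probe sets of higher mean signal. This check does not cover dim probe sets or differences between whole arrays. Correlations used group-centred values and all 46656 arrangements within groups (Python 3.11.15, NumPy 2.4.6), two-sided.

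Labels name a separate mouse for each array. The labels do not say whether replicate numbers pair the mice, so the main fit used no block. The correlation of same-numbered deviations between genotypes ran from -0.116 to 0.0576. Such small values cannot decide whether the mice were paired. Scan dates and batches were not used here. The members and lists were chosen with earlier results of these data known. Genes named by rule are all members, up to 4 genes of each further list with the lowest unadjusted p in any genotype comparison, and the 5 genes most like the members' mean profile. Rhob, Camk4 and Stmn4 were named in addition, after their calls with age were seen. Some cell type marker genes are named as well. A gene with several probe sets was represented by its tested one of highest mean signal, suffix _x_at last. Alternatives were another pseudocount (16), quantile normalization, median centring, no filter, no trend, only the compared groups, the replicate block, both covariates, and each array left out. A difference within 1 SE of 0 was given no direction there.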

Additional observations from a re-analysis of the deposited data

Results flagged for a closer look

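The estimated genotype difference in Jund had opposite signs at the early ages and at 120 days. Every G93A array lay below every control at 60 and at 90 days and above every control at 120 days, which set this result apart for a closer look. The margin at 120 days was narrow (498.4 against 492.9). Of all probe sets, 18.5%, 11.5% and 16.1% had groups free of overlap at 60, 90 and 120 days. The share with such a reversal was not counted. The genotype difference at 120 days exceeded that at 60 days by 1.22 and that at 90 days by 1.04 on the log2 scale. The test of the change with age over all probe sets missed the threshold (limma F = 4.83, adjusted p = 0.264). After median centring the difference at 120 days was 0.19, at 90 days -0.38 and at 60 days -0.49. The value at 120 days after centring is within 1 SE (0.272) of 0. The median signal of the arrays was 45.8 to 61.8 in G93A against 58 to 64 in control mice at 60 days. It was 45.5 to 49.4 against 45.4 to 57.9 at 90 days and 52 to 56 against 37 to 47.8 at 120 days. Within groups Jund had r = 0.794 with this median, a relation that did not pass its adjustment. With the hybridization level as a covariate the 60-day difference in Jund was smaller, as given above. The part of the array measures in the differences of Jund was not tested.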

How the results depend on the processing

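No member was called between genotypes at 90 or 120 days or over the mean of the ages, or in G93A mice with age, or in the test of change with age, under any alternative run, while at 60 days 1 member, Fos, was called with the replicate block (2.02, limma adjusted p = 0.0365) and the count ranged from 0 to 1 with each array left out. The replicate block changed no other call of a member in the genotype comparisons, and a block of the replicate number within genotype, chosen after seeing the data, kept the counts with age at 2 in controls and 0 in G93A mice. In controls with age, the 2 calls became 1 without the trend (Fos 2.29, limma adjusted p = 0.0557), 1 with only the compared groups (Fos 2.29, limma adjusted p = 0.0873) and 0 with the Gapdh covariate (Fos 1.99, Jund -1.31). With each array left out the count ranged from 1 to 2, Fos from 1.45 to 2.99 and Jund from -1.80 to -1.33, always called. Egr1 at 60 days reversed to -0.11 with the hybridization covariate, from 0.48. The number of called pairs (1) became 0 after quantile normalization, 0 after median centring, 0 without the 2 arrays farthest from the median and 2 without subtraction of group means, and ranged from 0 to 1 with each array left out. The pair of Fos and Jund was lost without any 1 of the 60-day arrays, any 1 of the 120-day controls, control 90 days replicate 3 or G93A 120 days replicate 3, while r stayed between -0.728 and -0.591. For calls lost under the trend, the scaling and the compared groups the cause was not tested; leaving arrays out also leaves fewer arrangements. Members near the array median (Junb, Fosb, Ier2 and Btg2) are limited by signal over background, as are the folds of Fos and Dusp1, which rest on 60-day controls at or below it (62.2 and 16 for Fos, 13.1 for Dusp1).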
